A study of Mus musculus with 30 samples.

Results

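Androgen signalling and prostate identity genes were followed in the ventral prostate (VP) of mice fed different fats. The set held 8 genes taken by symbol, and the rule used no measured value, although earlier results of these data were known. Members were the transcription factors Hoxb13, Foxa1 and Gata3, the enzymes Srd5a1 and Srd5a2, the receptor co-activator Ncoa4, and the hormone-responsive genes Fkbp5 and Tmprss2. These were 8 of the 39179 gene identifiers in the count tables, of which 37607 matched a symbol. All 8 passed the filter on low counts in every comparison.

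Male C57/BL6 mice received, from weaning, isocaloric growth diets of the AIN-93G type in which the fat source was linseed oil (LO, rich in ω-3 polyunsaturated fatty acids), soybean oil (SO, rich in ω-6) or pork fat (PF, lard, rich in saturated fatty acids). The VP was collected after 12 or 32 weeks, which gave 6 groups of 5 mice, and RNA was sequenced from 1 library per mouse. No group received a diet without added fat and no animal was castrated or given hormone, so the hormone-responsive genes were measured in intact males only. The tissue was whole VP, in which fewer cells of a type and less RNA per cell cannot be told apart.

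In the prostate, testosterone enters the cell and is reduced by the steroid reductases Srd5a1 and Srd5a2 to dihydrotestosterone, which binds the androgen receptor with higher affinity. The receptor is held by chaperones and immunophilins, moves to the nucleus with its ligand and works with pioneer and lineage factors such as Foxa1, Gata3 and Hoxb13 and with co-activators such as Ncoa4. Fkbp5 and Tmprss2 are used as read-outs of the active receptor, and Fkbp5 also responds to glucocorticoids.

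Sequenced libraries held between 27590631 and 41301707 counts on genes. The tissue carried its markers: all 7 luminal epithelial markers were detected, and the 4 ventral secretion genes summed to between 103345 and 335603 CPM per mouse (CPM, counts scaled to a common library size). The 8 seminal vesicle genes stayed under 1 CPM in every mouse and summed to at most 0.337 CPM. The 4 urothelial genes summed to 266 to 693 CPM and the 4 skeletal muscle genes to 40.9 to 508 CPM. Tgm4, listed as a marker of other prostate lobes, reached 1293 CPM in LO mouse 4 of 12 weeks and 288 CPM in LO mouse 3 of 32 weeks. It was 181 CPM in PF mouse 2 of 32 weeks, 144 CPM in PF mouse 5 of 12 weeks and 87.1 CPM or less elsewhere. The part of such tissue in the member values was not tested. The mice numbered 1 stood apart in the epithelial genes described below, with luminal marker sums of 2703 to 3718 CPM (median 3087) against 2005 to 2827 CPM (median 2441) in the other 24 mice. Their smooth muscle marker sums were also high, at 2850 to 3692 CPM (median 3263) against 1892 to 3249 CPM (median 2500) in the others. A further pair of 12-week mice, LO mouse 2 and SO mouse 5, had 123 and 346 CPM of Pbsn, which encodes the secretory protein probasin, against 1837 to 7530 CPM in the other 28 mice. Values without these mice are given beside some of the main results, and not for every value they moved.

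Upstream sequences are shown for the pair of reductases, which differed from each other in level, and for Foxa1, which held a motif of its own protein class. They are RefSeq windows on GRCm38.p6, without the annotated exon bases of the gene, and all lie on the minus strand and are written 5′ to 3′. Those of the reductases lie outside the annotated gene. That of Foxa1 lies before the start of the protein-coding transcript but inside the span of the gene, in the first intron of a further annotated transcript. Capitals mark a match to the forkhead motif TGTTTAC on either strand. The windows lie at chr13:69611464-69611713 for Srd5a1, chr17:74047917-74048110 for Srd5a2 and chr12:57546122-57546361 for Foxa1.
Srd5a1: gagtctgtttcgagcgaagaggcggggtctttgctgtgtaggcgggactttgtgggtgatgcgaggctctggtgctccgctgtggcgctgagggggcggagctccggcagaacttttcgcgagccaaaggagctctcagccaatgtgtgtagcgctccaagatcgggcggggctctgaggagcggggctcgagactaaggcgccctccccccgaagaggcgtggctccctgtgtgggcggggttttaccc
Srd5a2: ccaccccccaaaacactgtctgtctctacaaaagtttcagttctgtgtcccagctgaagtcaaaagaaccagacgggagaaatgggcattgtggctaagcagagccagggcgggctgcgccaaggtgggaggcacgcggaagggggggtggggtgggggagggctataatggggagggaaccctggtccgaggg
Foxa1: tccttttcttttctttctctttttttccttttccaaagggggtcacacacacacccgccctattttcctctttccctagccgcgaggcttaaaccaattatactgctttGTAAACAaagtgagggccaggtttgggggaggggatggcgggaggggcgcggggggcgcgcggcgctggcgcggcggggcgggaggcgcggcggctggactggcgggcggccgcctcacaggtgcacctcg

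Of the 8 genes, 7 matched the promoter table, through 9 windows of 250 bases before and 50 bases after a start site. Hoxb13 had no entry. The palindromic steroid receptor element was in none of the 9 windows and in 0.00913% of the 32851 windows of the table. Its repeat unit AGAACA was in all 3 Ncoa4 windows and in 19% of all windows, and was in no window of the other 6 genes. The forkhead motif TGTTTAC was in the Foxa1 window only, 141 bases before the start site, against 3.65% of all windows. The GATA motif AGATAA (11.2% of all windows) and the HOXB13 motif CAATAAA (4.60%) were in none of the 9. Both strands were searched, and 2 of the 3 Ncoa4 windows overlap each other.

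Members of the set differed more than 100-fold in level. On the scale of CPM per kilobase of exon, averaged over the 30 mice with the SD between mice, Hoxb13 had the highest level (151 ± 49.3, SD, n = 30) and lay above 98.8% of the 16605 genes that passed the filter. Foxa1 (88.8 ± 11.5), Fkbp5 (63.0 ± 12.1), Ncoa4 (38.2 ± 10.1) and Tmprss2 (25.5 ± 3.02) followed on the same scale. Gata3 (8.26 ± 1.29) and Srd5a2 (8.04 ± 1.36) had close levels, and Srd5a1 was lowest at 1.22 ± 0.277 CPM per kilobase, above 31.8% of genes.

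The reductase ratio followed from these levels. Srd5a2, the isoenzyme that predominates in adult prostate, exceeded Srd5a1 in every one of the 30 mice, with a ratio of CPM per kilobase between 3.63 and 10.6 and a mean of 6.87 ± 1.64 (SD, n = 30). The group mean of this ratio was highest in mice fed LO for 12 weeks (8.24 ± 1.81, SD, n = 5) and lowest in mice fed PF for 32 weeks (4.97 ± 1.08, SD, n = 5). Every mouse of the latter group (3.63 to 5.98) lay below every mouse of the former (6.81 to 10.6). These extremes differ in both diet and time, and were picked for their means.

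**Figure D1:**
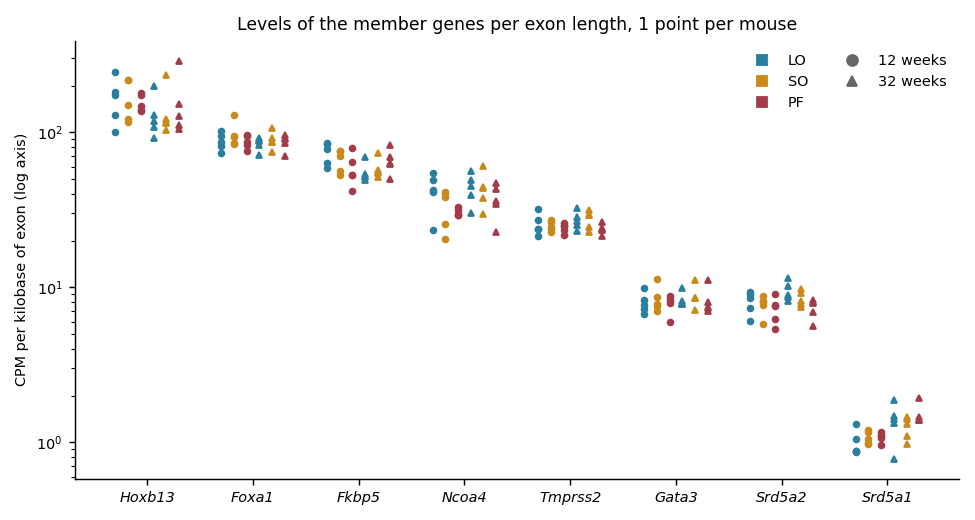
Levels of the 8 genes in CPM per kilobase of exon on a log axis, 1 point per mouse, colour for diet and shape for weeks of feeding (5 mice per group). Hoxb13 averaged 151 and Srd5a1 averaged 1.22 CPM per kilobase, and within each gene the 6 groups lay side by side.

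The first question was whether the fat source changed these genes. No member passed in any of the 6 diet comparisons (0 of 8 each by the edgeR quasi-likelihood test, adjusted p under 0.05), nor did any of the 15873 genes tested at 12 weeks or the 16218 tested at 32 weeks (background 0%). At an unadjusted p under 0.05, Ncoa4 was the 1 member in PF against LO at 12 weeks, where 9.24% of all genes passed, and Srd5a2 was the 1 member in PF against LO at 32 weeks, where 8.6% did. The other 4 diet comparisons had no member under that value, against backgrounds of 7.99% for PF against SO at 12 weeks, 4.28% for LO against SO at 12 weeks, 10.8% for PF against SO at 32 weeks and 3.48% for LO against SO at 32 weeks. No member separated 2 diets without overlap. Of all genes, 1.57% did so in PF against SO, 1.59% in PF against LO and 0.731% in LO against SO at 12 weeks, and 2.18%, 1.13% and 0.641% at 32 weeks.

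In the order of the 6 group means, every pair of neighbours overlapped in range for each of the 8 genes. The group with the highest mean and the group with the lowest mean overlapped too, except for Srd5a1. These groups were picked as the extremes of 6. The share of all genes that did not overlap between such extremes was not computed. The ratio of the highest to the lowest group mean was 1.11 for Gata3, 1.15 for Foxa1 and for Tmprss2, 1.28 for Hoxb13, 1.32 for Srd5a2, 1.34 for Fkbp5, 1.44 for Ncoa4 and 1.52 for Srd5a1.

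**Figure D2:**
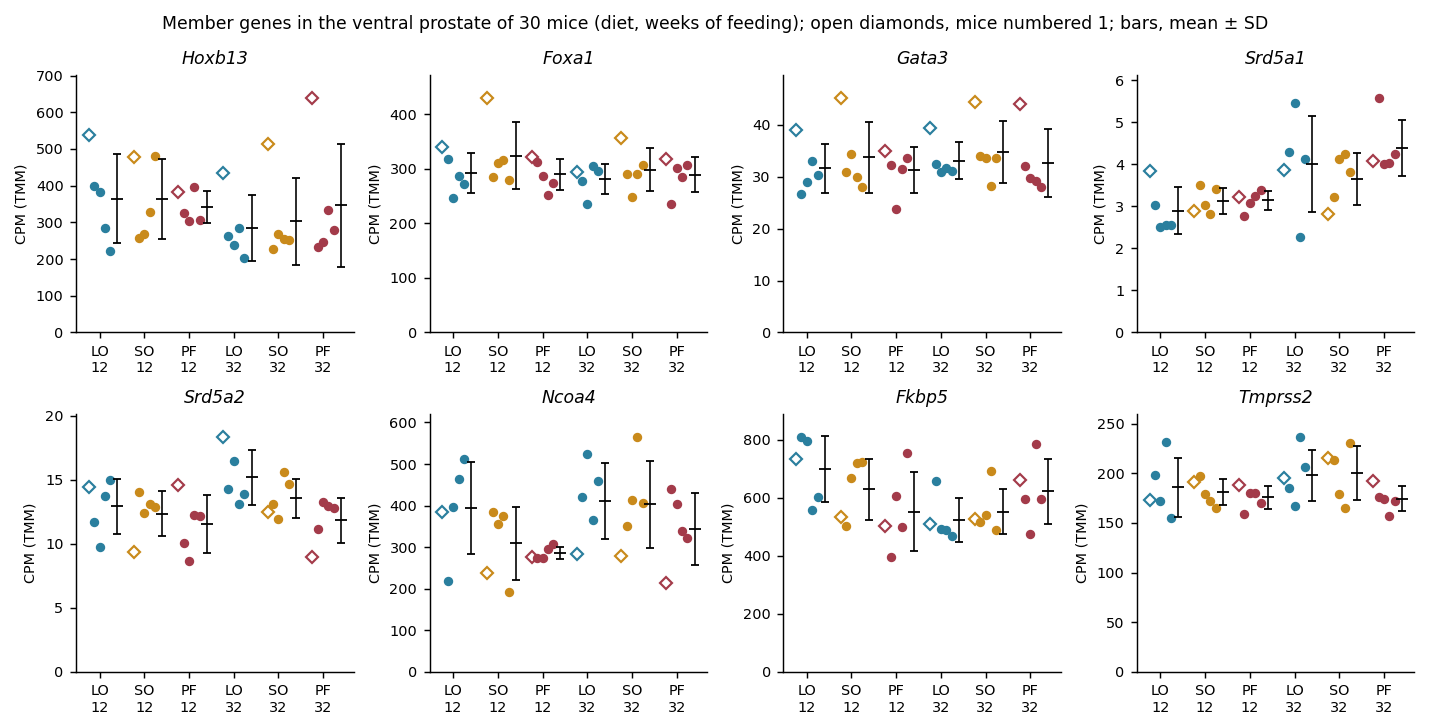
CPM of the 8 genes in each mouse, by diet and weeks of feeding, with the mean and SD (bars) of 5 mice. Open diamonds are the mice numbered 1, which were the highest for Gata3 in all 6 groups, and Srd5a1 is the gene whose PF mice at 32 weeks (4.02 to 5.58 CPM) lay above those at 12 weeks (2.77 to 3.38 CPM).

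Lineage transcription factors came first among the roles. Hoxb13 (chr11:96194316-96197447, plus strand), the homeobox factor that marks prostate and hindgut epithelium, had an order of group means running from LO at 12 weeks (365 ± 121 CPM, SD, n = 5) through SO at 12 weeks (363 ± 109), PF at 32 weeks (346 ± 168), PF at 12 weeks (342 ± 43.9) and SO at 32 weeks (303 ± 118) to LO at 32 weeks (285 ± 89.7). The spread within groups was wide. At 32 weeks the mouse numbered 1 was the highest of each group, and at 12 weeks this held for LO only.

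Hoxb13 was at 435, 513 and 639 CPM in the mice numbered 1 of LO, SO and PF at 32 weeks, while the other 12 mice of that time lay between 202 and 335 CPM. At 12 weeks the mice numbered 1 had 538, 477 and 382 CPM for LO, SO and PF, and the other 12 mice had 221 to 480 CPM. The mouse numbered 1 was the highest for Hoxb13 in 4 of 6 groups, and its ratio to the mean of the other mice of its group ranged from 1.15 to 2.34. Krt8, the luminal keratin, was likewise highest in the mouse numbered 1 in 6 of 6 groups, with ratios of 1.29 to 2.09. The part of epithelial or smooth muscle content in the Hoxb13 values was not tested.

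Between diets the log2 fold change of Hoxb13 ran from -0.08 to 0.30, and its 95% intervals together spanned -0.75 to 0.97. This was the widest span of the 8 genes, so differences of this size between diets were not detectable for Hoxb13. The highest value, PF against LO at 32 weeks (0.30, adjusted p = 0.83), was 0.15 without the mice numbered 1 (adjusted p = 0.86).

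Foxa1 (chr12:57540628-57546916, minus strand), the forkhead pioneer factor that opens chromatin for the androgen receptor, was among the steadiest. Its group means lay between 281 ± 27.2 CPM in LO at 32 weeks and 324 ± 61.0 CPM in SO at 12 weeks (SD, n = 5), in the order SO at 12 weeks, SO at 32 weeks (298 ± 38.8), LO at 12 weeks (292 ± 37.3), PF at 12 weeks (289 ± 28.6), PF at 32 weeks (289 ± 32.4) and LO at 32 weeks. The SO mean at 12 weeks rested on mouse 1 at 429 CPM, with the other 4 mice at 279 to 316 CPM. All 6 diet differences of Foxa1 lay between -0.16 and 0.06 on the log2 scale, with 95% intervals inside -0.41 to 0.29.

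Gata3 (chr2:9857078-9890034, minus strand), a zinc finger factor of prostate and mammary luminal cells, had the narrowest range of group means, from 31.3 ± 4.43 CPM in PF at 12 weeks to 34.8 ± 5.93 CPM in SO at 32 weeks (SD, n = 5). Between them stood LO at 12 weeks (31.6 ± 4.76), PF at 32 weeks (32.6 ± 6.59), LO at 32 weeks (33.1 ± 3.52) and SO at 12 weeks (33.7 ± 6.80). The mice numbered 1 had 39.1, 45.2, 35.1, 39.3, 44.5 and 44.1 CPM in LO, SO and PF at 12 weeks and LO, SO and PF at 32 weeks, and the other 24 mice had 23.7 to 34.3 CPM. Thus every mouse numbered 1 was above all 24 others for Gata3, and the diets overlapped throughout. Diet differences of Gata3 ran from -0.10 to -0.01 on the log2 scale, with 95% intervals inside -0.39 to 0.31. Of the Gata3 exon bases, 3.90% are shared with the antisense gene Gm13256 and 1.94% with 9230102O04Rik, whose counts reached at most 6 and 134 per mouse.

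The androgen-activating enzymes came next. Srd5a1 (chr13:69573449-69611442, minus strand) had between 70 and 213 counts per mouse, the fewest of the set. In CPM, mice 1 to 5 fed LO had 3.84, 3.03, 2.52, 2.55 and 2.55 at 12 weeks and 3.87, 4.30, 5.45, 2.27 and 4.13 at 32 weeks. Those fed SO had 2.88, 3.51, 3.03, 2.82 and 3.40 CPM at 12 weeks and 2.82, 3.21, 4.12, 4.26 and 3.82 CPM at 32 weeks. Those fed PF had 3.21, 2.77, 3.08, 3.26 and 3.38 CPM at 12 weeks and 4.07, 5.58, 4.02, 4.03 and 4.25 CPM at 32 weeks. The 32-week mice were mostly the higher ones on each diet, with overlap for LO, where mouse 4 was the lowest of all 30, and for SO, and without overlap for PF.

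The order of Srd5a1 group means put the 3 groups of 32 weeks above the 3 of 12 weeks: PF (4.39 ± 0.670 CPM), LO (4.01 ± 1.14) and SO (3.65 ± 0.611) at 32 weeks, then PF (3.14 ± 0.233), SO (3.13 ± 0.310) and LO (2.90 ± 0.567) at 12 weeks (SD, n = 5). Between diets at one time its log2 differences were -0.11 to 0.29, with 95% intervals inside -0.40 to 0.71 and adjusted p of at least 0.62.

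Srd5a2 (chr17:74016955-74047916, minus strand) had group means of 15.2 ± 2.14 CPM in LO and 13.6 ± 1.53 CPM in SO at 32 weeks, then 12.9 ± 2.16 in LO and 12.4 ± 1.78 in SO at 12 weeks, and 11.8 ± 1.79 in PF at 32 weeks and 11.6 ± 2.28 in PF at 12 weeks (SD, n = 5). At 32 weeks mice 1 to 5 fed LO had 18.3, 14.3, 16.4, 13.1 and 13.9 CPM, and those fed PF had 8.97, 11.2, 13.3, 12.9 and 12.8 CPM. The highest PF mouse exceeded the lowest LO mouse, so the ranges touched. The log2 fold change of PF against LO was -0.36 (SE 0.12, 95% interval -0.62 to -0.09, unadjusted p = 0.0119), and it did not pass with adjusted p = 0.45. The mice numbered 1 were the highest for LO and the lowest for PF, and without the mice numbered 1 the difference was -0.20 (adjusted p = 0.78).

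Ncoa4 (chr14:32159865-32179855, plus strand) encodes a co-activator of the androgen receptor that also serves as the cargo receptor for the autophagy of ferritin. At 12 weeks mice 1 to 5 had 384, 218, 397, 463 and 511 CPM on LO, 238, 384, 357, 375 and 191 CPM on SO, and 277, 274, 274, 295 and 307 CPM on PF. The 5 PF mice were close together (SD 14.7 CPM), whereas the LO mice spread over more than 2-fold and reached below them through mouse 2. PF against LO at 12 weeks gave a log2 fold change of -0.46 (SE 0.21, 95% interval -0.91 to -0.01, unadjusted p = 0.0455) and did not pass (adjusted p = 0.53). Without LO mouse 2 and SO mouse 5 the difference was -0.61 and still did not pass (adjusted p = 0.37). This omission was added after the values had been seen, and it removes the LO mouse lowest in Ncoa4 at 12 weeks.

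At 32 weeks the Ncoa4 means were 410 ± 91.9 CPM in LO, 403 ± 105 in SO and 344 ± 86.5 in PF (SD, n = 5). The full order of group means was LO and SO at 32 weeks, LO at 12 weeks (395 ± 111), PF at 32 weeks, SO at 12 weeks (309 ± 88.3) and PF at 12 weeks (285 ± 14.7). The mice numbered 1 of LO, SO and PF at 32 weeks were the lowest of their groups, at 283, 278 and 214 CPM.

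The 2 mice lowest in Ncoa4 at 12 weeks were also low in Msmb. This secretory microseminoprotein gene ends 1494 bases before Ncoa4 on the same strand. The next lowest in Ncoa4 at 12 weeks, SO mouse 1 (238 CPM), had 2434 CPM of Msmb. LO mouse 2 and SO mouse 5 had 540 and 647 CPM of Msmb, and the other 28 mice had 1768 to 4520 CPM. Across the 30 mice, in log2 CPM, Ncoa4 followed Msmb with Pearson r = 0.70 and Spearman rho = 0.65, and without these 2 mice r was 0.59 (n = 28). Centred on the 6 group means r was 0.82. The neighbour on the other side, Timm23, which ends 306 bases away on the opposite strand, had r = -0.63 with Ncoa4 over the 30 mice. Pbsn, which is not a neighbour of Ncoa4, had r = 0.69 and rho = 0.69 with it over the same mice. For Pbsn r was 0.63 without LO mouse 2 and SO mouse 5, and 0.81 centred on group means. The relation with Ncoa4 was thus not particular to Msmb. Pbsn was listed as a marker of other prostate lobes, and the part of lobe content in these relations was not tested. These are descriptions over mice that share the scaling of their library, and no exon bases of Ncoa4 are shared with another gene of the tables.

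**Figure D3:**
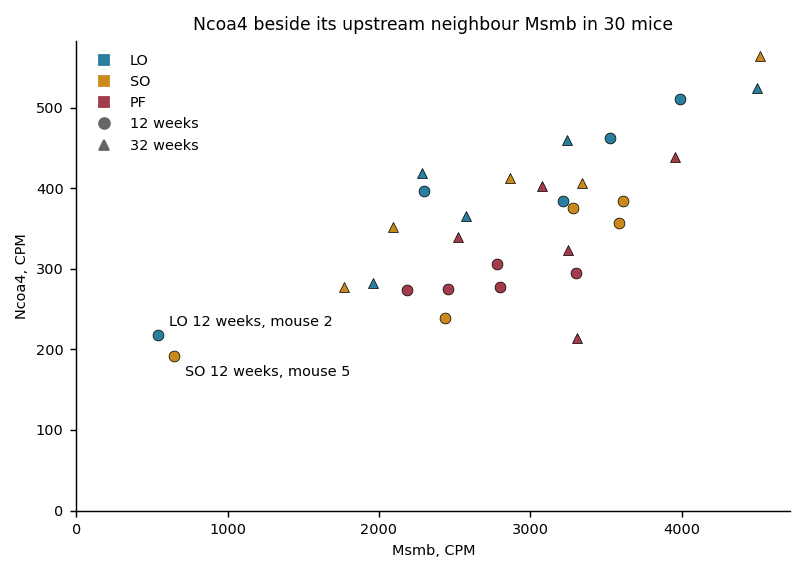
Ncoa4 against Msmb in CPM, 1 point per mouse, colour for diet and shape for weeks of feeding. LO mouse 2 and SO mouse 5 of 12 weeks are the 2 points below 700 CPM of Msmb, and had 218 and 191 CPM of Ncoa4.

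The hormone-responsive genes were the last role. Fkbp5 (chr17:28399094-28517527, minus strand) encodes an immunophilin of the steroid receptor chaperone complex. At 12 weeks mice 1 to 5 fed LO had 735, 808, 796, 557 and 602 CPM and those fed PF had 503, 394, 606, 499 and 754 CPM. At 32 weeks LO mice had 509, 657, 492, 488 and 468 CPM and PF mice had 660, 595, 473, 784 and 596 CPM. LO was therefore the higher diet at 12 weeks and the lower at 32 weeks, with overlap at both times.

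PF against LO gave a log2 fold change of -0.34 (SE 0.16, 95% interval -0.69 to 0.01, adjusted p = 0.55) for Fkbp5 at 12 weeks and of 0.26 (SE 0.14, 95% interval -0.03 to 0.55, adjusted p = 0.61) at 32 weeks. The test of whether this difference itself changed with time gave 0.59 (SE 0.22, 95% interval 0.14 to 1.05, unadjusted p = 0.0118) and did not pass over the 16605 genes (adjusted p = 0.54). SO mice held means of 629 ± 105 CPM at 12 weeks and 552 ± 79.3 CPM at 32 weeks (SD, n = 5). The order of means was LO at 12 weeks (700 ± 114), SO at 12 weeks, PF at 32 weeks (622 ± 113), SO at 32 weeks, PF at 12 weeks (551 ± 136) and LO at 32 weeks (523 ± 76.4).

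Tmprss2 (chr16:97564682-97611195, minus strand), a serine protease of the luminal cell surface, varied least within groups, with a pooled SD of 0.16 on the log2 scale against a median of 0.24 over all genes. Its means ran from 174 ± 12.4 CPM in PF at 32 weeks through PF at 12 weeks (176 ± 11.3), SO at 12 weeks (181 ± 13.2), LO at 12 weeks (186 ± 29.7) and LO at 32 weeks (198 ± 25.8) to 201 ± 27.3 CPM in SO at 32 weeks (SD, n = 5). The lowest difference, PF against SO at 32 weeks, was -0.18 on the log2 scale (adjusted p = 0.55), and over the 6 diet comparisons the 95% intervals lay inside -0.41 to 0.25.

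**Figure D4:**
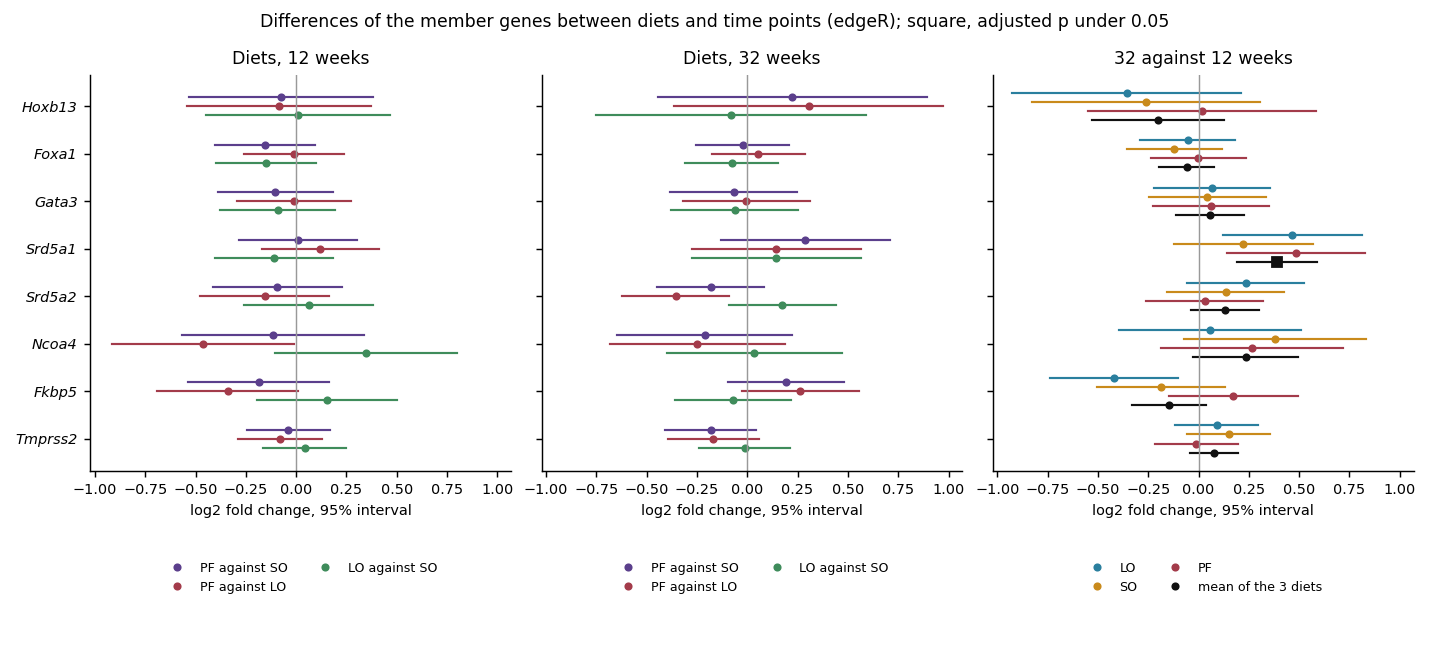
Log2 fold changes of the 8 genes with 95% intervals from edgeR, for the 3 diet pairs at 12 weeks, at 32 weeks, and for 32 against 12 weeks within each diet and as the mean of the 3 diets. The square, Srd5a1 over the mean of the diets (0.39), is the 1 value with adjusted p under 0.05.

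The second question was what differed between 12 and 32 weeks of feeding, which also compares younger with older mice, and any difference in handling between the time points cannot be told apart from either. Within single diets no member passed (0 of 8 on LO, on SO and on PF), against 2.7% of the 16605 genes on LO, 6.46% on SO and 0.0301% on PF. Srd5a1 was higher at 32 weeks by 0.47 on LO (SE 0.17, unadjusted p = 0.0102, adjusted p = 0.11), by 0.22 on SO (SE 0.17, adjusted p = 0.50) and by 0.48 on PF (SE 0.17, unadjusted p = 0.00766, adjusted p = 0.34), all in log2 fold change. At an unadjusted p under 0.05 there were 2 of 8 members on LO, Srd5a1 and Fkbp5, beside 20.5% of all genes, 0 of 8 on SO beside 19.7%, and 1 of 8 on PF beside 10.2%. PF was the 1 diet without overlap between the times for a member, where 1.55% of genes did not overlap. On LO and on SO no member was without overlap, against 4.25% and 7.45% of genes.

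The LO value moved in both directions with single mice. Without mouse 4 of 32 weeks, at 2.27 CPM of Srd5a1, the LO difference was 0.64 and passed (adjusted p = 0.0139), and without mouse 3 of 32 weeks, at 5.45 CPM, it was 0.34 and did not (adjusted p = 0.35). Without the mice numbered 1 it was 0.62 (adjusted p = 0.0684). Fkbp5 was lower at 32 weeks on LO by a log2 fold change of -0.42 (SE 0.16, unadjusted p = 0.0117, adjusted p = 0.12), with -0.19 on SO and 0.17 on PF.

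Averaged over the 3 diets, a contrast added after the values had been seen, Srd5a1 rose from 12 to 32 weeks with a log2 fold change of 0.39 (SE 0.10, 95% interval 0.19 to 0.59), or 1.31-fold, with adjusted p = 0.00644. It was the 1 of 8 members that passed, where 19.9% of the 16605 genes did, a share in which 1 of 8 members is no more than the background. The call held under all 41 alternative settings, with adjusted p from 0.000601 to 0.0121 when single mice were left out. Srd5a2 had 0.13 (adjusted p = 0.26), Fkbp5 -0.14 (adjusted p = 0.26), Tmprss2 0.08 (adjusted p = 0.38), Foxa1 -0.06 (adjusted p = 0.57) and Gata3 0.06 (adjusted p = 0.66). Ncoa4 had 0.24 (adjusted p = 0.20), which was 0.15 without LO mouse 2 and SO mouse 5 of 12 weeks (adjusted p = 0.40) and 0.33 without the mice numbered 1 (adjusted p = 0.0589). Hoxb13 had -0.20 (SE 0.16, adjusted p = 0.40), and without the mice numbered 1 it fell by 0.35 and passed (adjusted p = 0.0190). That alternative was also added after the values had been seen.

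Marker sums of cell types were also compared between the times. All 6 leukocyte markers were detected, and their summed level had a median of 125 CPM (56.6 to 152) in LO, 87.0 (55.1 to 91.3) in SO and 184 (92.8 to 218) in PF at 12 weeks. At 32 weeks the medians were 267 CPM (88.0 to 482) in LO, 268 (85.9 to 325) in SO and 186 (128 to 331) in PF. The leukocyte ranges of the times overlapped on each diet. The 5 basal epithelial markers summed to 68.6 to 129 CPM at 12 weeks and 132 to 246 CPM at 32 weeks in LO, to 77.2 to 109 and 111 to 165 CPM in SO, and to 89.1 to 141 and 103 to 149 CPM in PF. The 4 ventral secretion genes summed to 202890 to 326310 CPM at 12 weeks and 103345 to 198343 CPM at 32 weeks in LO, to 224938 to 320505 and 142800 to 170404 CPM in SO, and to 178405 to 335603 and 122909 to 296339 CPM in PF. Basal sums were higher and secretion sums lower at 32 weeks without overlap in LO and SO, and the times overlapped in PF. Sbp made up most of the secretion sums, with means of 193678 and 110212 CPM at 12 and 32 weeks in LO and 218799 and 112376 CPM in SO. Spink1 means were also lower at 32 weeks in LO and SO. Msmb means were not, at 2715 and 2911 CPM in LO and 2712 and 2917 CPM in SO. The part of these cell contents in the differences between times was not tested. Srd5a1 shares 16.4% of its exon bases with Gm17108 on the same strand, which had at most 8 counts in a mouse, and it lies inside the span of Nsun2 on the opposite strand without shared exon bases.

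No member passed in the 3 tests of whether a diet difference changed with time, and neither did any other gene (background 0%). Fkbp5 in PF against LO, above, had the largest of these values for a member.

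Lists of related genes showed the surrounding pathway. None of the genes tested in 5 lists passed in a diet comparison: 20 co-regulators and chaperones, 13 or 14 androgen-metabolizing enzymes out of 25 listed, 28 androgen-response genes, 16 glucocorticoid-response genes and 29 lineage transcription factors out of 30 listed. The list medians in the 6 diet comparisons lay between -0.16 and 0.19 on the log2 scale, both for the lineage factors at 32 weeks, while the medians of all genes lay between -0.01 and 0.01. At an unadjusted edgeR p under 0.05 the lists varied. Lineage factors had 7 of 29 in LO against SO at 32 weeks, beside 3.48% of all genes, and 0 of 29 at 12 weeks, beside 4.28%. Glucocorticoid-response genes had 6 of 16 in PF against SO at 12 weeks, beside 7.99%, and 1 of 16 at 32 weeks, beside 10.8%. Among diet comparisons the smallest adjusted p of the lists was that of Cdkn1a, an inhibitor of the cell cycle, at 0.66 log2 in PF against SO at 12 weeks (adjusted p = 0.14).

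Between times within a diet, 1 of 28 androgen-response genes rose on LO (3.57%, beside 2.7% of all genes), namely Ndrg1, a stress- and androgen-induced gene, by a log2 fold change of 0.48 (adjusted p = 0.0376). On SO 2 of 28 fell (7.14%, beside 6.46% of all genes): Tpd52 by 0.29 (adjusted p = 0.0384) and Odc1, the first enzyme of polyamine synthesis, by 0.52 on the log2 scale (adjusted p = 0.0415). No gene of the other 4 lists passed within a diet, and none of any list passed on PF.

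Over the mean of the 3 diets, 4 of 14 enzymes of androgen metabolism passed (28.6%, beside 19.9% of all genes), 3 of them higher at 32 weeks. In the 12-week fit 13 of this list passed the filter, so the share may count a gene tested only through its 32-week counts. Whether Cyp17a1 was that gene was not examined. The genes that passed follow. These were Cyp17a1, which makes androgen precursors (1.37 log2, adjusted p = 0.00575), Hsd17b11 (0.20, adjusted p = 0.0312), the third reductase Srd5a3 (0.14, adjusted p = 0.0380) and, in the other direction, Hsd3b7, an enzyme of bile acid synthesis (-0.20, adjusted p = 0.0364). Of the androgen-response genes 9 of 28 passed (32.1%), 4 higher and 5 lower, among them the metalloreductase Steap4 at 0.73 and the transporter Abcc4 at -0.21 in log2 fold change. Of 20 co-regulators and chaperones 2 passed (10%), both lower: Carm1, an arginine methyltransferase (-0.20, adjusted p = 0.00817), and Fkbp4, the immunophilin that acts beside Fkbp5 (-0.19, adjusted p = 0.0283). Of 16 glucocorticoid-response genes 4 passed (25%), with Cdkn1a (0.40) and Fam107a (0.34) higher and Klf9 (-0.23) and Per1 (-0.39) lower. Of 29 lineage factors 2 passed (6.9%), Hoxb7 (0.40) and Foxf1 (0.39), both higher.

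Pairs of members were compared over the 15 mice of each time point, 28 pairs at each time, in log2 CPM. At 12 weeks none of the 28 passed (permutation test with 100000 resamples, adjusted over 56), and at 32 weeks 4 of 28 did. By Spearman's rho none of the 56 passed, the lowest adjusted permutation p being 0.12.

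At 32 weeks 3 of these 4 pairs joined Hoxb13, Gata3 and Ncoa4, in which the 3 mice numbered 1 lay apart from the other 12. For Hoxb13 and Ncoa4 the pooled r was -0.85 (adjusted permutation p = 0.00280, rho = -0.74), r without the 2 mice farthest from the Hoxb13 median was -0.68, and among the 12 other mice r was -0.49. For Hoxb13 and Gata3 the pooled r of 0.79 (adjusted permutation p = 0.0290, rho = 0.31) became 0.39 without the 2 farthest mice and -0.35 among the 12 others. For Gata3 and Ncoa4 the pooled r of -0.73 (adjusted permutation p = 0.0290, rho = -0.48) became -0.42 and -0.05. The relations of Gata3 thus rested on the mice numbered 1.

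The fourth pair was different in this respect. Srd5a1 and Tmprss2 had r = -0.72 at 32 weeks (adjusted permutation p = 0.0290, rho = -0.68), -0.69 among the 12 mice not numbered 1, -0.68 after centring on diet means and -0.53 without the 2 mice farthest from the Srd5a1 median. At 12 weeks the same pair had r = -0.05, and the difference between the times was not tested. Foxa1 and Srd5a1 at 32 weeks (r = -0.69, adjusted permutation p = 0.0632) did not pass.

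**Figure D5:**
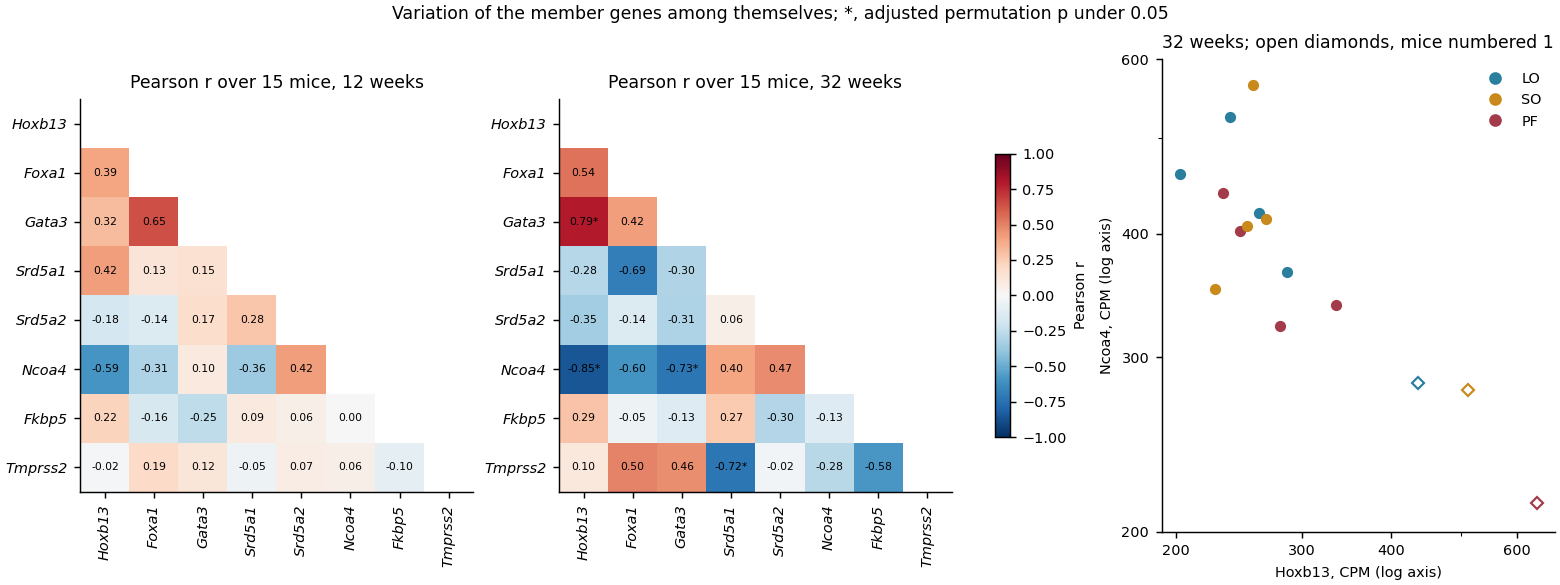
Pearson r of log2 CPM for the 28 pairs over the 15 mice at 12 weeks (left) and at 32 weeks (middle), with asterisks for an adjusted permutation p under 0.05, and Hoxb13 against Ncoa4 in CPM at 32 weeks on log axes (right). The 3 mice numbered 1 (open diamonds) are at the right and low end, with Hoxb13 of 435 to 639 CPM.

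Genes whose pattern over the 30 mice was most like a member were taken by Pearson r of log2 CPM, as a description. Hoxb13 was followed most closely by Mlf2 (r = 0.96), Cdc34 (0.96) and Them6 (0.96), and these r were still 0.92 for each among the 24 mice not numbered 1. Ncoa4 was followed by Gm6768 (0.93), Fam210a (0.92) and Fut8 (0.89). Gata3 had Zfp503 (0.86), N4bp3 (0.85) and Pard6b (0.85), which dropped to 0.52, 0.48 and 0.67 without the mice numbered 1.

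For Foxa1 the nearest were Marveld3 (r = 0.81), Tbx3 (0.76) and Tfap2a (0.73), with 0.62, 0.57 and 0.44 among the 24 mice. For Srd5a1 they were Pla1a (0.78), Lbp (0.78) and the chemokine Ccl7 (0.77), with 0.79, 0.82 and 0.79 among the 24 mice. For Srd5a2 they were Olfml2a (0.79), the matrix protein gene Hmcn1 (0.77) and the potassium channel gene Kcnd3 (0.75). For Fkbp5 they were Tox3 (0.83), Phf11c (0.81) and Setdb2 (0.81). For Tmprss2 they were the epithelial cadherin Cdh1 (0.74), Plscr1 (0.71) and Capn13 (0.70). Spearman's rho for these 24 genes ran from 0.57 (Tfap2a) to 0.96 (Mlf2), and r without the 2 mice farthest from the member's median ran from 0.58 (Tfap2a) to 0.95 (Mlf2).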

How the data were processed

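RNA from the VP of 30 mice was sequenced as paired ends from a stranded mRNA kit. The authors aligned the reads with TopHat2 to GRCm38.p6, per the submitters' processing notes, and deposited raw HTSeq counts per gene, 1 table per mouse. The strand setting and annotation release behind the counts are not given in the sources used here. Between 23.7% and 32.2% of the entries of a table were on no gene and were left out. Symbols, positions and exon lengths came from GENCODE mouse release 21 on GRCm38. Groups came from the sample titles.

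From the counts, edgeR (version 4.0.16, under R 4.3.3) was used for the filter on low counts (filterByExpr), TMM scaling and two-sided quasi-likelihood tests. Benjamini-Hochberg adjustment covered all genes tested, with a threshold of 0.05. The 3 diets of a time shared a fit for diet comparisons, and all 30 mice did for time. Levels are CPM after TMM over 30 mice, and log2 CPM used a prior count of 2. The SE was derived from the F statistic. The fit was tested on simulated data. Same-group libraries all differed beyond sampling noise (chi-square per degree of freedom of at least 24.5 over 60 pairs). P-values reflect the spread between 5 mice per group.

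Members and lists were chosen with earlier results of these data known. All 8 members are named. List genes that could be named were, per comparison, up to 4 that passed with the smallest p, or 2 with the smallest p where none passed. Only some of these are named above. The 3 most alike genes per member are named. Alternatives were DESeq2 1.42.0, size factors, filters, thresholds, samples in the fit, a replicate block and each mouse left out. Results for some genes are not reported here.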

Additional observations from a re-analysis of the deposited data

Results flagged for a closer look

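Single mice stood away from the other 4 of their group by Dixon's criterion for 5 values in 8 of the 48 combinations of gene and group examined, where chance flags about 1 in 20. Of these, 5 were mice numbered 1, all at the high end: Hoxb13 in SO (513 CPM) and PF (639 CPM) at 32 weeks, Gata3 in LO (39.3 CPM) and PF (44.1 CPM) at 32 weeks, and Foxa1 in SO at 12 weeks (429 CPM). The others were PF mouse 2 at 32 weeks for Srd5a1 (5.58 CPM), LO mouse 2 at 32 weeks for Fkbp5 (657 CPM) and SO mouse 4 at 32 weeks for Fkbp5 (691 CPM), again at the high end. The luminal and smooth muscle marker sums of the mice numbered 1 are given with the results, and their part was not tested.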

How the results depend on the processing

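The number of members called was 0 in the 12 comparisons set out at the start, and stayed 0 under every alternative but 1. Leaving out single mice gave 0 to 1 member in 32 against 12 weeks on LO, with Srd5a1 at 0.64 (adjusted p = 0.0139) without LO mouse 4 of 32 weeks and at 0.34 (adjusted p = 0.35) without LO mouse 3. Over the mean of the 3 diets the 1 member became 2 when the mice numbered 1 were left out, Hoxb13 being added at -0.35. DESeq2 called genes of the whole table in diet comparisons where the main edgeR test called 0, but no member. It called 196 in PF against SO at 12 weeks and up to 222 in PF against SO at 32 weeks with the block. The edgeR test itself called 131 genes in PF against SO at 12 weeks without PF mouse 5, again with no member. In the other diet comparisons it called at most 1 gene when single mice were left out. With all single-mouse omissions set aside, the genes called over time ranged from 94 to 1482 on LO (448 in the main test), 508 to 1969 on SO (1073), 0 to 224 on PF (5) and 2269 to 4907 over the mean of the diets (3301), with the lowest on LO, SO and the mean coming from leaving out LO mouse 2 and SO mouse 5 of 12 weeks. Leaving out single mice, the ranges in the same order were 47 to 1043, 226 to 1556, 0 to 7 and 2595 to 4025. The cause was not tested.

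With the replicate number as a block, members called were 0 in all 12 comparisons and 1 (Srd5a1, 0.39, adjusted p = 0.00796) over the mean of the diets, as without it. Same-numbered mice did not deviate together throughout (correlation over 0.1 in 39 of 75 pairs, 15 of 15 for number 1 and 24 of 60 for numbers 2 to 5), and 10 of 30 mice correlated best with their own number, so the numbers were not taken as pairs, although the mice numbered 1 deviated together (mean r of 0.43, lowest 0.28). Pairs of members that passed were 4 with a prior count of 2 and 4 with 0.5. Of the 24 most alike genes, 15 were still among the 3 highest r after centring on group means. Srd5a1, with 70 to 213 counts per mouse, is the member whose values depth limits most.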
